A study of Drosophila melanogaster with 4 samples.

Results

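The clusters of ubiquitylated histone H2B (H2Bub) in Drosophila head chromatin are often parted from their neighbour by less than 1000 bp. These short unmarked gaps were taken from the list of enriched regions of each ChIP replicate: regions were sorted by start on X, 2L, 3L and 3R, and each interval of 1 to 999 bp between consecutive regions was kept. Replicate 1 held 1111 such gaps among 4330 intervals of any length, and replicate 2 held 1175 among 4441. They lay between 4336 and 4449 clusters on these 4 arms, out of 5440 and 5597 clusters in the whole lists. A further 2 pairs of clusters in replicate 1 and 4 in replicate 2 abutted with no base between them and were not counted as gaps. The gaps were chosen by the bounds of the clusters in each list, so the number, length and flank positions of the gaps are given as description, with no test.

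Chromatin came from head nuclei of Oregon-R flies, a wild-type strain, collected as adults of mixed age from population cages, and no allele or treatment set any samples apart. The series holds 2 ChIP samples made with the antibody NRO3 against H2Bub, and 2 inputs, which have no region list here. The authors also made 1 combined list for the replicate set. A head holds neurons, glia, eye, muscle and fat cells, and the ChIP gives 1 profile for all of them. Separate fly populations for both replicates are not stated, so differences between them may be technical. Sequencing depth is unknown, since the lists hold no read counts.

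H2Bub is a single ubiquitin near the C-terminal end of histone H2B, placed in flies by the ubiquitin ligase Bre1 and removed by the deubiquitylase Nonstop of the SAGA complex. It is laid down as RNA polymerase II elongates, so it covers the bodies of transcribed genes, whereas promoters, which are often depleted of nucleosomes, and silent genes carry little of it. What lies in a gap, and how far the signal dips there, was not analysed here, because the lists hold neither genes nor signal within gaps. All positions are those of FlyBase release 5, and gaps are named by position without genes.

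Short gaps made up 25.7% of the intervals between neighbouring clusters in replicate 1 and 26.5% in replicate 2 (mean 26.1 ± 0.566%, SD, n = 2), while the median interval of any length was 3575.5 bp and 3363 bp. Their median length was 380 bp and 400 bp, in the same order (mean 390 ± 14.1 bp), with the middle 50% of gaps between 157 and 681 bp and between 175 and 677.5 bp. Gaps were most frequent at the shortest lengths: 192 gaps of replicate 1 and 184 of replicate 2 were under 100 bp, against 96 and 88 from 900 to 999 bp. Counts went on declining past the limit, with 64 intervals from 1000 to 1099 bp in each replicate. The last 10 bp inside the limit held 12 and 16 gaps, and the first 10 bp outside it 5 and 7 intervals. All short gaps together held 472.8 kb in replicate 1 and 508.9 kb in replicate 2, or 1.75 and 1.82 gap bases per 100 cluster bases.

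**Figure D1:**
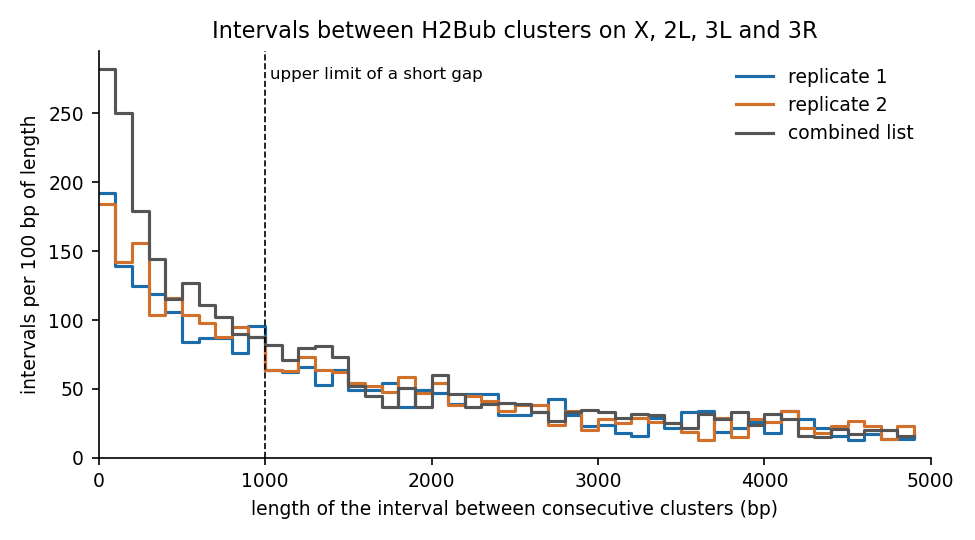
Number of intervals between consecutive clusters (vertical axis, per 100 bp of length) against interval length in bp (horizontal axis) on X, 2L, 3L and 3R, for replicate 1, replicate 2 and the combined list. The lines are highest under 100 bp, at 192, 184 and 282 intervals, and decline with length; the dashed line marks the limit of 1000 bp, past which both replicates have 64 intervals in the next 100 bp.

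The shortest gaps were single bases. In replicate 1 they were X at 7808038, between clusters of 1766 and 3367 bp, and 2L at 13026208 and at 18215953; in replicate 2 the only one lay on X at 19742644, between clusters of 15958 and 3812 bp. All 4 of these bases lay inside a single cluster of the other replicate. Just inside the limit, replicate 1 held gaps of 999 bp on X from 1987007 to 1988005 and from 4235729 to 4236727, and on 3L from 8298937 to 8299935. The other replicate showed a short gap at the first, a single cluster across the second and a longer unmarked stretch at the third. Replicate 2 held gaps of 998 bp on 2L from 6914531 to 6915528 and of 999 bp on X from 15445127 to 15446125 and from 16341552 to 16342550, where replicate 1 showed a short gap, a single cluster and a longer stretch. Just outside, the first intervals measured 1002 and 1004 bp in replicate 1 (X from 15316450 to 15317451 and from 9310800 to 9311803, 3L from 10868272 to 10869275) and 1000, 1003 and 1005 bp in replicate 2 (X from 15876383 to 15877382, 3R from 469137 to 470139, X from 9323788 to 9324792). All 6 of these overlapped an unmarked stretch of 1000 bp or more in the other replicate.

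Clusters beside a short gap had nearly the same widths as the rest, and slightly lower scores. In replicate 1, 1939 clusters (44.7%) had a short gap on at least 1 side, with a median width of 3510 bp against 3457 bp for the other 2397. In replicate 2 there were 2020 (45.4%), with 3568.5 against 3412 bp. Clusters over 10 kb made up 15.6% of the flanking clusters in either replicate, against 15.1% and 15.9% of the others, and clusters of up to 2000 bp made up 22.3% and 21.7% against 22.5% and 23.8%. The authors' score for a cluster has no stated scale and was turned into a percentile within its list. The median flanking cluster stood at the 50.0th percentile in replicate 1 and the 49.4th in replicate 2, against 52.9 and 52.3 for clusters with no short gap, a difference of -2.87 ± 0.0257 points (mean ± SD, n = 2). When clusters under the median score were left out, the difference was -3.35 points in replicate 1 and -0.09 in replicate 2. The 283 and 330 clusters with a short gap on both sides stood lower, at 46.5 and 47.3. No test was made, since clusters of 1 library are not replicates.

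The pairs of clusters beside a gap differed in width much as all neighbours did. Across the gaps the narrower flank had a median width of 2271 and 2267 bp in replicates 1 and 2, against 2249 and 2252 bp over all neighbouring pairs at any distance. The wider one had 5808 and 5853 bp, against 5749.5 and 5934 bp. The median difference between both flanks' scores was 22.9 percentile points in replicate 1 and 22.4 in replicate 2, against 25.2 and 25.1 over all neighbouring pairs. The wider flank also had the higher score at 893 of 1111 gaps (80.4%) and 950 of 1175 gaps (80.9%). This share was not computed over all neighbouring pairs, so it is not given as a trait of gap flanks. Scores left and right of a gap had a Spearman's rho across gaps of 0.12 in each replicate, against 0.09 and 0.10 across all neighbouring clusters at any distance. Gap length and the lower of the flank scores had a rho of 0.05 and 0.04. These values describe gaps within a library, which share its reads.

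At the place of a short gap, the other replicate showed 1 of 3 things: a short gap again, a single cluster that bridged it, or a longer unmarked stretch. A gap was called recurrent when it overlapped a short gap of the other replicate by at least 1 bp, and bridged when all its bases lay in 1 cluster. Any other gap was counted with a longer stretch when it overlapped one of 1000 bp or more by at least 1 bp. Part of such a gap could lie inside a cluster. Of the 1111 gaps of replicate 1, 446 (40.1%, 95% Wilson interval 37.3 to 43.1%) recurred in replicate 2, 449 (40.4%, 37.6 to 43.3%) were bridged and 215 (19.4%, 17.1 to 21.8%) overlapped a stretch of 1000 bp or more. Of the 1175 gaps of replicate 2, 446 (38.0%, 35.2 to 40.8%) recurred in replicate 1, 362 (30.8%, 28.2 to 33.5%) were bridged and 366 (31.1%, 28.6 to 33.9%) overlapped a longer stretch. With a limit of 500 bp 25.3% and 24.5% recurred, and when the overlap had to cover at least 50% of both gaps 21.9% and 20.7% did. The remaining gap of each replicate crossed the boundary of a pair of abutting clusters. Among intervals of any length, the share that overlapped a short gap was 18% for replicate 1 and 14.6% for replicate 2, the share bridged was 12.1% and 9.43%, and the share that overlapped only longer stretches was 69.8% and 75.9%. Since a long interval cannot easily fit inside a cluster, the bridged share among them is low by construction. The intervals count gaps, not independent events, and cover counting error only. Together the replicates held short gaps at 1840 distinct places, of which 446 had one in both.

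The shorter a gap, the more often the other replicate closed it. Of gaps of 1 to 100 bp, 144 of 195 in replicate 1 (73.8%, 67.3 to 79.5%) and 111 of 187 in replicate 2 (59.4%, 52.2 to 66.1%) were bridged. From 101 to 250 bp the shares were 51.2% and 37.3%, and from 251 to 500 bp 34.7% and 28.3%. From 501 to 999 bp they were 23.7% (19.9 to 28.0%) and 18.2% (15.0 to 22.0%), and for intervals of 1000 to 1999 bp 11.2% and 8.19%. A short gap fits inside a cluster more easily than a long one. When only the midpoint of a gap had to lie in a cluster, the order was the same. The shares were then 76.4% and 65.2% of the gaps up to 100 bp, against 38.8% and 29.7% of those over 500 bp. The midpoint of a short gap also lies nearer to a cluster edge, so this criterion does not remove the effect of length. Recurrence was lowest for the shortest gaps, and it rose with each length class in replicate 1 but not in replicate 2. From 101 to 250 bp it was 34.4% and 39.6%, and from 251 to 500 bp 47.7% and 42.8%, the highest class in replicate 2. It was 16.4% (11.9 to 22.2%) and 23.5% (18.0 to 30.1%) for gaps up to 100 bp, against 48.8% (44.1 to 53.6%) and 39.8% (35.5 to 44.3%) for those over 500 bp; a longer gap also meets another one more easily.

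**Figure D2:**
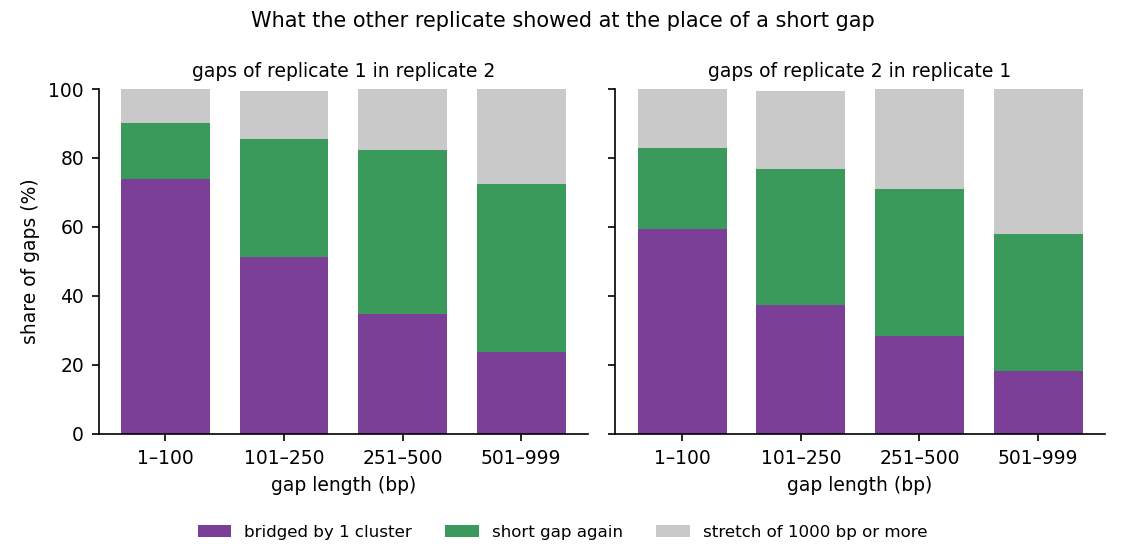
Share of short gaps (%, vertical axis) by gap length in bp (horizontal axis) that were bridged by 1 cluster, were a short gap again, or overlapped a stretch of 1000 bp or more in the other replicate, with replicate 1 gaps on the left and replicate 2 gaps on the right. Bridged shares fall from 73.8% and 59.4% at 1 to 100 bp to 23.7% and 18.2% at 501 to 999 bp; the bars of 101 to 250 bp end just under 100% because 1 gap in each crossed a pair of abutting clusters.

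Among the short gaps, those between strong clusters recurred more often than those with a weak flank. Where the lower of both flank scores stood above the 75th percentile, 50 of 77 gaps of replicate 1 (64.9%, 53.8 to 74.7%) and 48 of 73 of replicate 2 (65.8%, 54.3 to 75.6%) recurred. Where it stood at or under the 25th percentile, 176 of 460 (38.3%, 33.9 to 42.8%) and 136 of 461 (29.5%, 25.5 to 33.8%) did. Median gap length was nearly the same in these classes, at 360 and 360.5 bp in replicate 1 and 412 and 382 bp in replicate 2. Gaps with a weak flank more often overlapped a longer stretch: 24.8% (21.1 to 28.9%) and 40.1% (35.8 to 44.7%) in the lowest class, against 2.60% (0.715 to 8.98%) and 13.7% (7.61 to 23.4%) in the highest. In the classes between, from the 25th to the 50th and from the 50th to the 75th percentile, 34.3% and 44.3% of replicate 1 gaps recurred, and 36.9% and 47.9% of replicate 2 gaps. The order was thus unbroken in replicate 2, whereas in replicate 1 the class from the 25th to the 50th percentile had the lowest share. Intervals of any length were not split by flank score, so whether this order is particular to short gaps was not tested.

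Where a gap overlapped a longer unmarked stretch of the other replicate, a flank was absent there, or both flanks were present with a longer stretch between them. Of the 215 such gaps of replicate 1, both flanks overlapped a replicate 2 cluster at 113 (52.6%), 1 flank had no counterpart at 89 (41.4%) and neither had one at 13. Of the 366 of replicate 2, the counts were 171 (46.7%), 169 (46.2%) and 26. Where both flanks were present, the median gap of 674 bp in replicate 1 stood against a median stretch of 1414 bp in replicate 2, and the median gap of 624 bp in replicate 2 against one of 1474 bp in replicate 1. That stretch reached past both edges of the gap at 60 of the 113 and 109 of the 171, and past 1 edge at the others. Where a single flank had no counterpart, it was narrow, with a median of 1586 and 1640 bp, and weak, at the 20.5th and 18.5th percentile.

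The gaps found in both replicates seldom had the same edges. All 446 paired 1 to 1, and in all 446 pairs the clusters left and right of the gap overlapped those of the other replicate. Their median length was 473 bp and 430 bp in replicates 1 and 2, and replicate 1 had the longer gap in 263 pairs against 182. Start and end differed by a median of 100 and 108.5 bp, and the lengths by 169.5 bp. In 41 pairs (9.19%) both edges agreed to within 50 bp, and in none were they identical. The median pair shared 49.0% of the bases covered by either gap, and 243 pairs (54.5%) overlapped by at least 50% of both gaps. Gap lengths followed each other loosely, with a Spearman's rho of 0.45 across the pairs. In 374 of 446 pairs (83.9%) the same side had the higher score in both replicates. Where the flank percentiles of replicate 1 were at least 20 points apart, this held for 236 of 251 pairs (94.0%). Neither share was computed for matched neighbours at other distances, so both may reflect agreement of cluster scores in general.

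**Figure D3:**
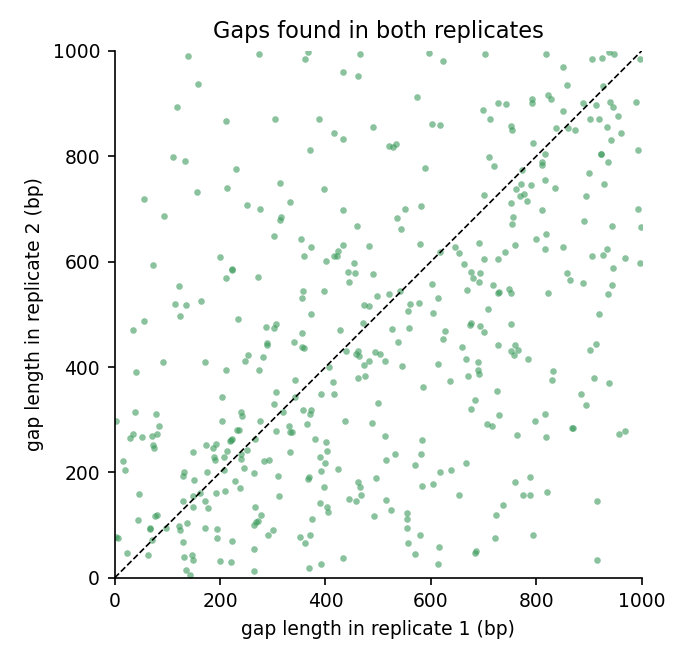
Length of a gap in replicate 1 (horizontal axis, bp) against its length in replicate 2 (vertical axis, bp) for the 446 gaps found in both; each point is a gap and the dashed line marks equal length. Points scatter widely about the line (Spearman's rho 0.45), with 263 below it and 182 above.

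The recurrent gaps with the strongest flanks, the first 2 on each arm by the lowest of their 4 flank percentiles, were each between 68 and 825 bp long. On 3R, a gap from 26633046 to 26633838 in replicate 1 (793 bp) lay from 26633037 to 26633861 in replicate 2 (825 bp), so that its start and end differed by 9 and 23 bp. Its left cluster of 17239 bp had a score of 1.98 and its right one of 11436 bp a score of 1.69 in replicate 1, with 2.00 and 1.63 in replicate 2. The combined list kept this gap at 717 bp. The other 3R gap, from 2243564 to 2244036 (473 bp) and from 2243587 to 2243990 (404 bp), had the highest flanks of all the recurrent gaps on the 4 arms, with none of its 4 flank scores under the 97.3rd percentile. It measured 379 bp in the combined list. Both 3R gaps thus kept most of their length in all 3 lists.

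On 2L, the gap from 832953 to 833434 (482 bp) lay from 832959 to 833474 (516 bp) in replicate 2, and 103 bp of it were left in the combined list. In replicate 1 its flanks measured 7867 and 18230 bp, in replicate 2 13183 and 20589 bp. The second 2L gap, from 6088583 to 6088712 (130 bp) and from 6088675 to 6088742 (68 bp), was the shortest of these gaps in both replicates, and the only 1 of the 8 that the combined list bridged. On 3L, the gap from 7979422 to 7979860 (439 bp) lay from 7979489 to 7979919 (431 bp) in replicate 2 and measured 223 bp in the combined list. It separated a cluster of 7488 bp from a domain of 32652 bp in replicate 1, and 7756 from 31819 bp in replicate 2. The second 3L gap, from 6178747 to 6179119 (373 bp) and from 6178685 to 6179185 (501 bp), parted clusters of 6632 and 3824 bp in replicate 1. It was 295 bp long in the combined list. On X, the gap from 6769068 to 6769608 (541 bp) lay from 6769437 to 6769981 (545 bp) in replicate 2, nearly equal in length but moved by 369 bp at its start and 373 bp at its end. Its clusters of 6904 and 4875 bp were 7485 and 4326 bp wide in replicate 2, and the combined list kept 283 bp of it. The second X gap, from 2527134 to 2527737 (604 bp) and from 2527529 to 2527706 (178 bp), bordered a domain of 41218 and 41224 bp, and 13 bp of it were left in the combined list.

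Clusters that bridged a gap were wide and stood above the median score, but did not always join both flanks. The 449 bridged gaps of replicate 1 lay in 400 clusters of replicate 2, with a median width of 7997.5 bp against 3477 bp for all its clusters on these arms. The 362 bridged gaps of replicate 2 lay in 321 clusters of replicate 1, with 7170 against 3477.5 bp. A wide cluster has more room to hold a gap, so this width is partly fixed by the definition. Median score percentile was 61.0 against 51.0 and 58.9 against 51.7. The wider flank of a gap also had the higher score at most gaps, and the score of the bridges was not separated from their width. The bridge covered at least 50% of both flanks at 297 gaps of replicate 1 (66.1%) and 205 of replicate 2 (56.6%). At 130 (29.0%) and 137 (37.8%) it covered this much of only 1 flank, and at 22 and 20 of neither. Where it covered this much of only 1 flank, the bridge reached a median of 199.5 and 251 bp beyond the gap on the other side. Most bridges closed a single gap, 360 and 288 of them, whereas 32 and 27 closed 2 gaps and 8 and 6 closed 3 or more, at most 4. The percentile of the bridge lay above both flanks at 218 gaps of replicate 1 (48.6%) and 149 of replicate 2 (41.2%), between them at 185 and 179, and below both at 46 (10.2%) and 34 (9.39%).

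The bridged gaps under the strongest clusters, 1 on each arm for each replicate, were of both kinds. At 4 of the 8, the bridge took in most of both flanks. On 2L, replicate 1 had a gap of 99 bp from 9205227 to 9205325 between clusters of 28867 and 13499 bp, where replicate 2 had 1 cluster of 42453 bp with a score of 2.00. On 3R, replicate 1 had a gap of 110 bp from 5178543 to 5178652 between clusters of 11333 and 6770 bp, under a replicate 2 cluster of 18409 bp. On 3L, 976 bp of replicate 2 from 7169071 to 7170046, close to the upper limit, lay in a replicate 1 cluster of 16853 bp that covered both flanks in full. On X, 152 bp of replicate 2 from 11007081 to 11007232 lay in a cluster of 19957 bp that held 77.2% of the left flank and 99.1% of the right one.

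At the other 4, the bridge reached across the gap from 1 flank and took in little of the other. On 3L, the 167 bp from 3899248 to 3899414 in replicate 1 parted a weak cluster of 2420 bp (17.2nd percentile) from a strong one of 3375 bp (99.7th percentile). The replicate 2 cluster there was 3566 bp wide: it held the strong cluster and the gap and began 4 bp before the gap. On 2L, the 16 bp of replicate 2 from 18138642 to 18138657 lay 7 bp from the start of a replicate 1 cluster of 14062 bp. On X, the 489 bp of replicate 1 from 11242675 to 11243163 lay 91 bp from the start of a cluster of 11869 bp, which held 2.45% of the left flank. On 3R, the 258 bp of replicate 2 from 25901465 to 25901722 lay in a cluster of 18577 bp that held 16.4% of the right flank. All 8 gaps were also bridged in the combined list.

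The combined list bridged more of the short gaps than it kept, and most of those it kept were shorter there. It bridged 665 of 1111 gaps of replicate 1 (59.9%, 56.9 to 62.7%) and 648 of 1175 of replicate 2 (55.1%), against 20.3% and 18.6% of intervals of any length. It kept a short gap at 443 (39.9%) and 524 (44.6%), against 29.4% and 28.9% of intervals of any length, and had a longer stretch at 3 gaps of each replicate, against 50.4% and 52.5%. How this list was made is not stated, and it is taken to share the replicates' reads and not as a separate check. By length, the shares went from 95.9% and 89.8% of gaps up to 100 bp to 40.7% and 38.1% of those over 500 bp. Nearly every gap bridged in the other replicate was bridged here too, 443 of 449 and 361 of 362. Gaps found in both replicates were not always kept: 140 of 446 pairs were bridged from either side. These had median lengths of 291 and 262.5 bp, and in 1 pair the shorter member reached 937 bp. Another 303 pairs were 1 short gap there too, with medians of 541 bp in replicate 1 and 492 bp in replicate 2 but 241 bp in the combined list. The combined gap was shorter than both in 286 of these 303 pairs (94.4%) and longer than both in none. Of all gaps that the combined list kept, 429 of 443 of replicate 1 (96.8%) and 477 of 524 of replicate 2 (91.0%) were shorter there. With a limit of 2000 bp the bridged shares were 49.1% and 44.1%.

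The combined list also had short gaps of its own. It held 1488 on the 4 arms, 31.2% of its intervals, with a median of 320 bp. Of these, 664 (44.6%) overlapped a short gap of either replicate, and 782 (52.6%) overlapped only stretches of 1000 bp or more in both replicates. At 480 of these 782 (61.4%), a flank of the gap was a combined cluster that overlapped no cluster of either replicate. All 4767 combined clusters on these arms start and end on even positions, and their narrowest measured 1001 bp. Its gaps therefore have odd lengths only, whereas 549 of 1111 and 584 of 1175 gaps were odd in the replicates, so the combined bounds were set on another grid.

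A short gap was followed by another about as often as a longer interval was. Short gaps came next after 25.5% of short gaps and 25.7% of longer intervals in replicate 1, and after 28.2% and 25.8% in replicate 2. Runs of 2 or more gaps with a single cluster between neighbours held 503 gaps of replicate 1 (45.3%) and 568 of replicate 2 (48.3%). With a limit of 500 bp the shares were 29.2% and 28.9%, and without clusters under the median score 28.0% and 22.1%. Replicate 1 had 171 runs of 2 gaps, 38 of 3, 10 of 4 and 1 of 7, and replicate 2 had 169 of 2, 53 of 3, 12 of 4 and 4 of 5 or more. Gaps within runs recurred less often than single ones, at 34.4% (30.4 to 38.6%) against 44.9% (41.0 to 48.9%) in replicate 1 and 33.5% (29.7 to 37.4%) against 42.2% (38.3 to 46.1%) in replicate 2. They were bridged more often in replicate 1, at 45.3% (41.0 to 49.7%) against 36.3% (32.6 to 40.2%), while the intervals of 33.6% (29.9 to 37.6%) and 28.2% (24.7 to 31.9%) in replicate 2 overlapped. Few runs were found whole in the other replicate: every gap recurred in 35 of 220 runs (15.9%) and 31 of 238 (13.0%), and every gap was bridged in 42 (19.1%) and 34 (14.3%). A whole run needs the same fate at 2 or more gaps, so shares below those per gap follow partly from the definition.

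The longest runs, 1 per arm and replicate, were each cut in another way by the other replicate. On X, the run of 7 gaps in replicate 1 spanned 63316 bp from 14730936 to 14794251, with gaps of 67 to 977 bp between clusters of 1623 to 22783 bp. Replicate 2 had 4 clusters over this stretch: 2 of the gaps recurred, 4 were bridged and 1 overlapped a longer stretch. On 3R, the run of 7 gaps in replicate 2 spanned 45313 bp from 23643483 to 23688795, with gaps of 5 to 940 bp. Its 8 clusters all stood between the 34.1st and 54.8th percentile. Replicate 1 had 2 clusters there, which bridged all 7 gaps, and the combined list had 1. On X, the run of 6 gaps in replicate 2 from 8861881 to 8896837 went the other way. All 6 overlapped longer stretches of replicate 1, some of them only in part. Replicate 1 had 5 clusters at that place, and the combined list bridged 5 of the 6 gaps.

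**Figure D4:**
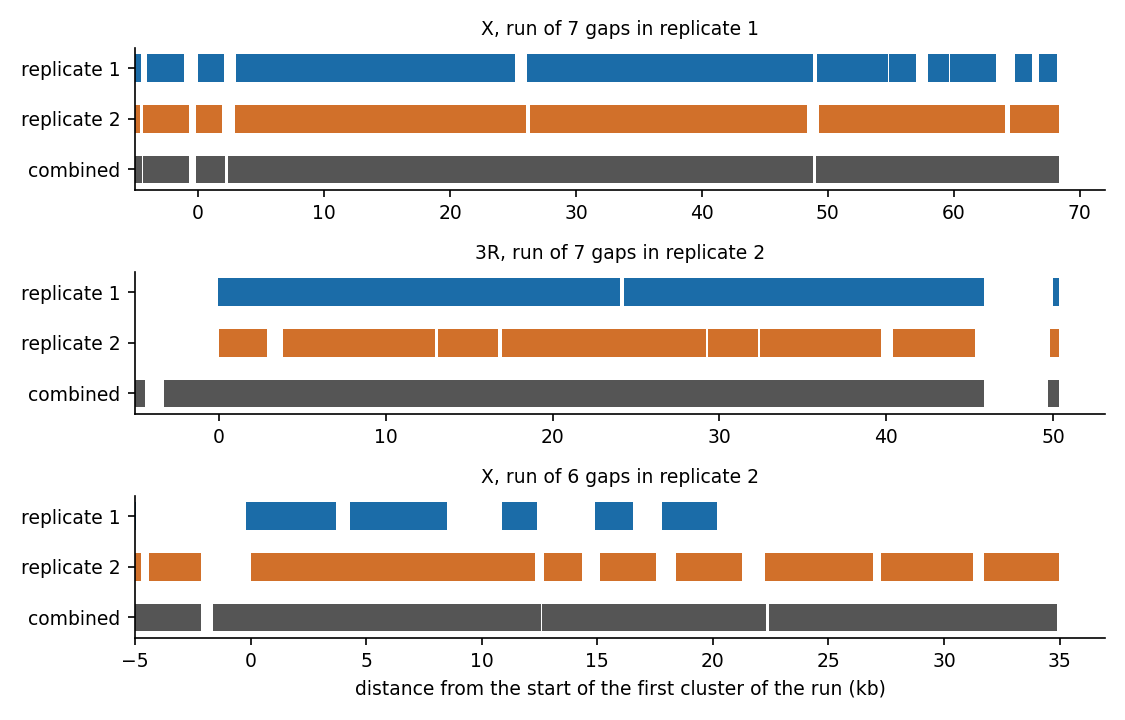
Maps of the 3 longest runs, with clusters as bars in replicate 1, replicate 2 and the combined list against the distance in kb from the start of the run's first cluster; the outer 5 kb on each side are included and gaps under about 100 bp are too thin to see. The X run of 7 gaps in replicate 1 is partly bridged in replicate 2, and the 3R run of 7 gaps in replicate 2 is wholly bridged in replicate 1. The gaps of the X run of 6 in replicate 2 overlap wider stretches without clusters in replicate 1, some only in part.

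The other 5 runs had 4 or 5 gaps. On 2L, the 4 gaps of replicate 1 from 4751923 to 4793719 (226 to 453 bp) were all bridged in replicate 2, and of the 4 gaps of replicate 2 from 12244355 to 12282757 (427 to 870 bp) 3 were bridged in replicate 1 and 1 recurred. The combined list had a single cluster over either run. On 3L, 3 of the 4 gaps of replicate 1 from 12209685 to 12257912 were bridged. The run of 5 gaps in replicate 2 on 3L from 16758890 to 16799011 had clusters from the 5.75th to the 98.5th percentile. There 2 gaps recurred and 3 overlapped longer stretches of replicate 1, and it was the only 1 of the 8 runs in which the combined list kept every gap. On 3R, the 4 gaps of replicate 1 from 5330042 to 5352241 split evenly, with 2 recurrent and 2 bridged.

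Joined across the short gaps, the clusters gave fewer and wider domains. The 4336 and 4449 clusters came to 3223 and 3270 domains, and the median width went from 3477.5 to 4724 bp in replicate 1 and from 3477 to 4745 bp in replicate 2. Domains of 20 kb and over went from 231 to 299 and from 237 to 319, and those of 50 kb and over from 27 to 49 and from 28 to 48. Of the joined domains, 829 and 846 held 2 or more clusters, with a median width of 10694 and 10813.5 bp. After joining, 74.4% of replicate 1 domains and 73.3% of replicate 2 domains paired 1 to 1 with a domain of the other replicate, against 66.6% and 64.9% of clusters before. Domains that spanned 2 or more of the other replicate came to 5.00% and 7.06%, against 8.37% and 10.2% before. Joining thus left part of the difference in cutting between the replicates. It removes every short gap from both lists by rule, so the changes in pairing and spanning are partly fixed by the definition.

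By arm, X had the most short gaps per Mb, and its gaps recurred least. The density on X was 14.5 gaps per Mb in replicate 1 and 14.9 in replicate 2 (mean 14.7 ± 0.252, SD, n = 2), against 11.0 ± 0.123 on 2L, 10.3 ± 0.432 on 3L and 11.0 ± 0.938 on 3R. Both X values lay above those of every autosomal arm here, whereas the values of 3R overlapped those of 2L and 3L. X exceeded the 3 autosomal arms together 1.36 ± 0.0428 times, and it also had 1.23 ± 0.0301 times as many clusters per Mb. When clusters under the median score were left out, the density ratio was 2.38 on average and 2.25 in replicate 2, the lower value. The ratio of clusters per Mb after this cut was not computed, so this value cannot be set against it. As a share of intervals, short gaps made up 28.0 ± 0.481% on X and 25.4 ± 0.614% on the autosomal arms together. Recurrence on X was 32.0% (27.2 to 37.3%) and 31.2% (26.5 to 36.4%), against 43.5% (40.1 to 47.0%) and 40.6% (37.4 to 44.0%) on the autosomal arms.

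What took the place of an X gap depended on the direction of the comparison. Replicate 2 bridged 163 of 325 X gaps of replicate 1 (50.2%, 44.7 to 55.6%), whereas replicate 1 bridged 91 of 333 X gaps of replicate 2 (27.3%, 22.8 to 32.4%) and had a longer unmarked stretch at 138 of them (41.4%, against 17.8% in the other direction). On the autosomal arms the bridged shares were 36.4% and 32.2%. The replicates also differed in X cluster width: the means were 5015 and 5427 bp in replicates 1 and 2, against 6702 and 6585 bp on the autosomal arms. The part of this width difference in the bridging of X gaps was not tested.

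**Figure D5:**
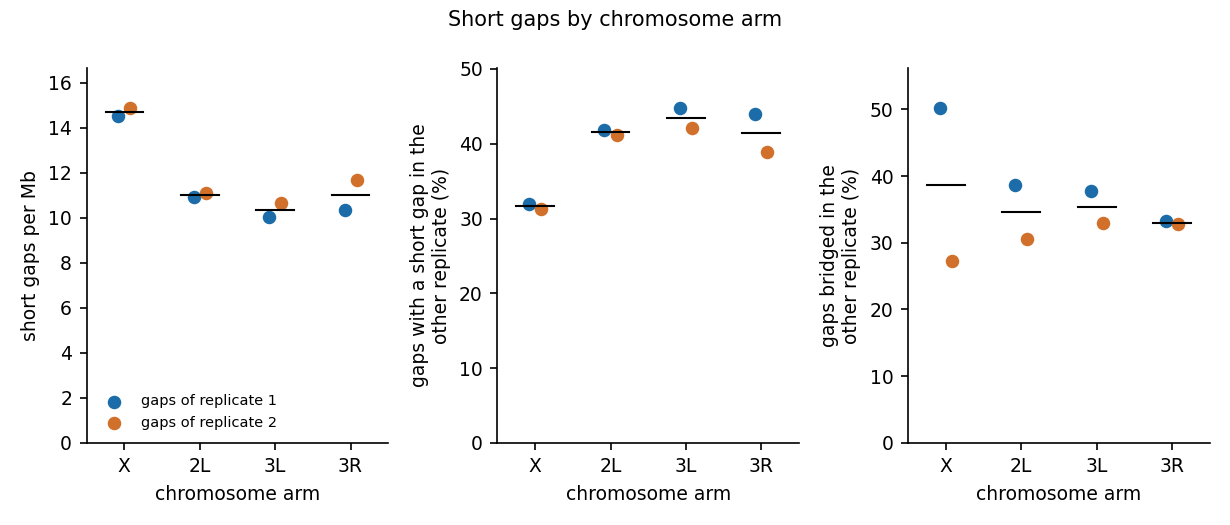
Short gaps per Mb (left), share of gaps that recurred in the other replicate (middle, %) and share bridged there (right, %) on X, 2L, 3L and 3R; points are the gaps of replicate 1 and of replicate 2, and bars mark their mean. X has the highest density in both replicates and the lowest recurrence, and its bridged share differs most between the replicates, at 50.2% and 27.3%.

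Joining did not remove the difference in cluster width between X and the autosomes. The mean width on X was 0.786 ± 0.0537 of that on the 3 autosomal arms before joining (0.748 in replicate 1 and 0.824 in replicate 2) and 0.820 ± 0.0534 after it (0.782 and 0.858). In the combined list the ratio was 0.860 before and 0.889 after. Within each list the ratio was higher after joining, by 0.034 in either replicate and by 0.029 in the combined list.

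Along the arms, all full windows of 1000000 bp held short gaps in at least 1 replicate. Over 96 windows mean counts lay between 3 and 25 (median 11.75), with at most 11 gaps between the replicates. The highest count was on X from 13000001 to 14000000, with 25 gaps in each replicate, followed by X from 11000001 to 12000000 with 18 and 29. On the autosomes it was 3R from 1000001 to 2000000, with 22 and 20. The lowest was 2L from 22000001 to 23000000, with 2 and 4 gaps. Windows with more clusters had more short gaps, with a Spearman's rho across windows of 0.83 in replicate 1 and 0.77 in replicate 2, and counts in both replicates were related with a rho of 0.73. Neighbouring windows are not independent.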

How the data were processed

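H2Bub ChIP-seq of head nuclei was analysed from 3 lists of enriched regions, 1 per ChIP replicate and 1 combined. The submitters' processing notes name Bowtie 0.12.7, an aligner. Coordinates follow FlyBase release 5, per the file headers. Each deposited region has bounds and the authors' score. Not given in the sources used here are the score's scale, the region caller with its threshold and smoothing, and how the combined list arose. A caller's threshold and minimum width decide where a cluster is cut, and so decide the gaps. Depth is unknown.

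Positions were read as 1-based and inclusive. The 2 regions of the combined list typed as depleted were left out; none lay in a short gap. Values are given per replicate and as mean ± SD; shares carry 95% Wilson intervals. No test was run: there is 1 condition, and gaps are not replicates. The classification recovered 100% of 1111 simulated fates in an altered copy of the replicate 1 list, in which gaps were filled, widened or left in place. Shifted or partly covered gaps were not simulated, so this checks the code and not the accuracy of the reported fates. Alternatives were gap limits of 500 and 2000 bp, the upper 50% of clusters by score, reciprocal overlap of 50%, the midpoint of a gap, and leaving out each replicate. Named gaps follow a rule: per arm, the longest run of each replicate, the 2 recurrent gaps with the highest lowest flank percentile and the bridged gap with the strongest bridge of each replicate, and the gaps at both ends of the length range. The highest and lowest windows were picked after their values were seen. Members and rules were chosen with earlier results of these data known. A gene table of release 6 was not used, and no sequence of release 5 was used. Software was Python 3.11.15, NumPy 2.4.6, SciPy 1.17.1 and Matplotlib 3.10.9.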

Additional observations from a re-analysis of the deposited data

How the results depend on the processing

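No paired analysis was possible because only the ChIP group has region lists here and nothing was tested between groups. Leaving out a replicate restates the other: 1111 to 1175 gaps, 38.0 to 40.1% recurrent, 30.8 to 40.4% bridged in the other replicate, 55.1 to 59.9% bridged in the combined list, a flank difference of -2.89 to -2.85 points, 45.3 to 48.3% in runs, an X to autosome density ratio of 1.33 to 1.39 and a joined width ratio of 0.782 to 0.858. With a limit of 500 bp there were 691.5 gaps on average, 24.9% recurrent, 45.1% bridged in the other replicate and 69.3% in the combined list, 29.1% in runs, a flank difference of -3.24 points and a density ratio of 1.29. With 2000 bp the shares were 53.5% recurrent, 27.0% and 46.6% bridged and 65.2% in runs, and the flank difference was -4.07 points. The upper 50% of clusters gave 307 gaps, 41.7% recurrent, 50.0% bridged in the combined list and 25.1% in runs, with a flank difference of -1.72 points (-0.09 in replicate 2), a density ratio of 2.38 and a joined width ratio of 0.691. A reciprocal overlap of 50% left 21.3% recurrent, and the midpoint criterion gave 47.0% bridged in the other replicate and 69.8% in the combined list. The flank difference kept its sign in both replicates and the X ratios their side of 1. As reported, the mean recurrent share was above the mean share bridged in the other replicate, though in replicate 1 it was slightly below, at 40.1% against 40.4%. The mean recurrent share fell below the bridged one at 500 bp and by reciprocal overlap. By midpoint the bridged share rose above the reported recurrent share, which was not recomputed, and a gap could then count as both. The combined list's bridged share fell below 50% with 2000 bp. Fates by flank score, run and arm were not recomputed under these settings. The cause of these changes was not tested beyond the settings' own construction, and unknown depth limits how firmly a gap can be told from a dip in signal.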
